A study of Ovis aries with 30 samples.

Results

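Prenatal exposure to biosolids was compared with no such exposure in the livers of all lambs of both sexes together, with the sex of the lamb as a blocking term. The comparison used 29 of the 30 sequenced libraries: 14 from biosolids lambs (8 females and 6 males) and 15 from control lambs (8 females and 7 males). The library of biosolids male 8778 was left out by the rule of the comparison. Lambs are named by their tag numbers. Genes were tested where a level of at least 1 CPM (counts scaled to 1 M, or mega, counts of the library) was reached in 14 of the 29 libraries, which kept 14284 of 31304 gene rows. The labels describe the animals as first-generation lambs whose mothers met biosolids before conception and during gestation, and the tissue as frozen liver. Age, dam, litter, pasture and processing day are not stated there. The tag numbers of control and biosolids lambs do not overlap, so flock or handling cannot be told apart from exposure, and p-values measure the spread between lambs, some of which may share a dam.

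Biosolids are treated sewage sludge spread on pasture as fertiliser, and they carry a mixture of environmental chemicals that includes metals, phthalates and polycyclic aromatic hydrocarbons. The liver is the main organ of chemical clearance. There, ligands of the aryl hydrocarbon receptor switch on CYP1A1, ligands of the pregnane and constitutive androstane receptors (NR1I2 and NR1I3) switch on other cytochrome P450 genes, and electrophiles act through NRF2 on genes such as NQO1. The liver also makes most plasma proteins, runs lipid and glucose metabolism, and answers infection with acute phase and interferon-stimulated genes. A pooled comparison of this kind asks which liver genes differ with exposure on average over both sexes.

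Total counts in the 29 libraries went from 24.1 to 51.9 M (mega-counts). The excluded library held 18.7 M, of which 87.5% were on ribosomal RNA rows, against 0.299 to 7.69% in the others. The 14 hepatocyte markers in the table summed to between 72867 and 141400 CPM, whereas 10 erythroid markers summed to at most 6.77 CPM in any library and 0 of them passed the filter. Counts on the 91 rows of the Y chromosome came to 12 to 24.7 CPM in 16 females and to 158 to 208 CPM in 13 males. The library labelled control male 8408 also held 322 CPM of LOC101112291, a long non-coding RNA gene of the X chromosome. That gene lay between 335 and 916 CPM in females and between 0.032 and 2.15 CPM in the other 12 males, so 8408 carried the Y rows of a male and the X-linked RNA of a female. Control female 8263 had by far the highest interferon-stimulated genes, and biosolids females 8649 and 8668 the highest FCGBP, a mucus protein. These 4 libraries were therefore also left out together, a choice made after their values were seen.

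No gene was called different between biosolids and control lambs. The edgeR quasi-likelihood test gave 0 genes at a Benjamini-Hochberg adjusted p under 0.05 (0% of the 14284 tested), with a smallest adjusted p of 0.726. At an unadjusted p under 0.05 it gave 449 genes, or 3.14% of those tested, of which 174 (1.22%) had a higher and 275 (1.93%) a lower level in biosolids lambs. A level of 5% corresponds to 714 genes. DESeq2 also gave 0 genes after adjustment and 496 (3.47%) before it. The voom method of limma, with weights for the samples, gave 0 and 686 (4.80%). Without the 4 libraries that stood apart the edgeR counts were 0 and 227 (1.59%). Without control female 8263 alone they were 0 and 417 (2.92%), and the balance of the latter turned to 226 higher (1.58%) and 191 lower (1.34%).

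The data bounded most differences closely. The 95% interval of the log2 fold change lay within 1 log2 unit of 0, that is less than a 2-fold difference, for 13724 genes (96.1%), and within 0.5 log2 units for 10732 genes (75.1%). The median width on each side of the estimate was 0.26 log2 units. It was 0.38 for the 3555 genes with a mean under 5 CPM and 0.24 for the 2833 genes with a mean over 50 CPM. The median absolute log2 fold change was 0.078, and 62 genes exceeded 1. Of the total variance of log2 CPM over the tested genes, exposure took up 2.68%, sex 9.44%, and the spread between lambs of the same sex and exposure 87.9%. The median over genes for exposure was 1.25%. A grouping without effect also takes up a share of the variance, and that share was not estimated. Protein-coding genes reached an unadjusted p under 0.05 in 415 of 13164 cases (3.15%) and long non-coding RNA genes in 32 of 1051 (3.04%).

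**Figure D1:**
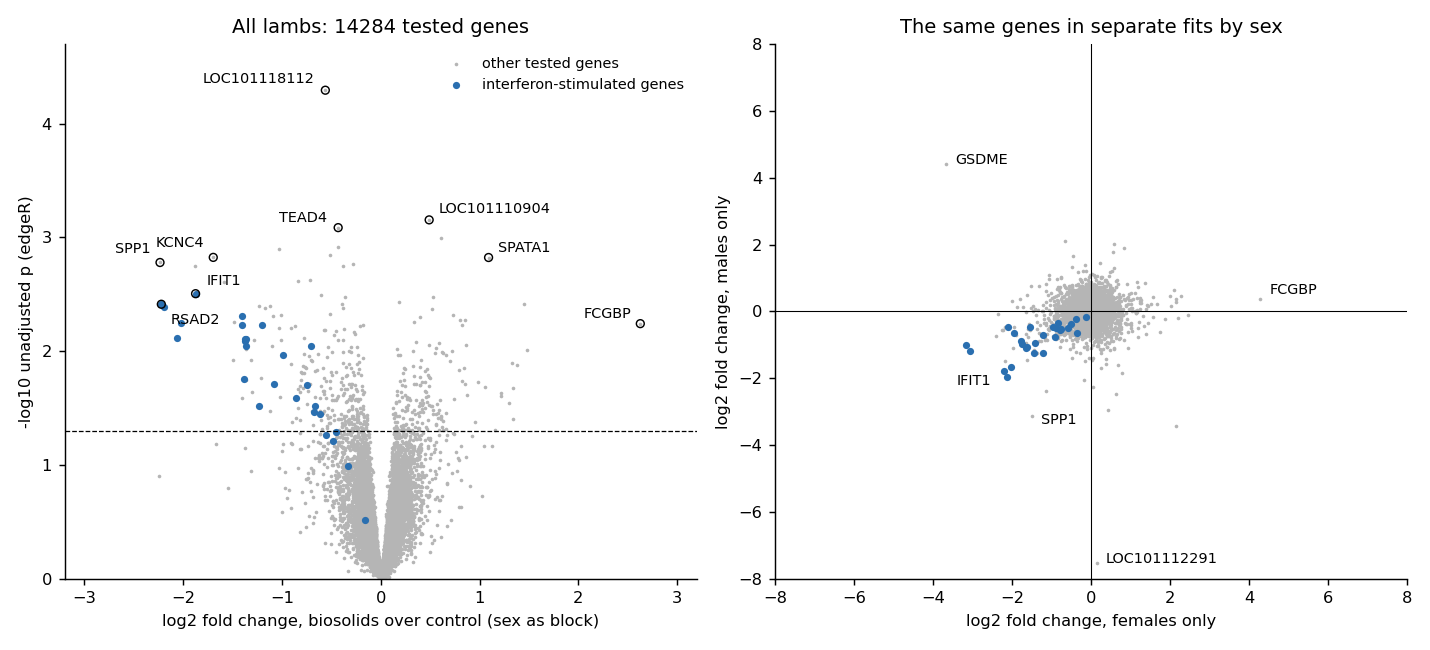
Left, the log2 fold change of biosolids over control lambs (x axis) against the −log10 of the unadjusted p (y axis) for the 14284 tested genes, with a dashed line at the unadjusted 5% level; right, the same genes by their log2 fold change in females only (x axis) and in males only (y axis). Blue points are the 27 tested interferon-stimulated genes, all of which lie to the left of 0 in both sexes, while 49.7% of all genes have the same sign in both.

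The smallest p belonged to LOC101118112, a protein-coding gene without an assigned name on chromosome 9 (15429193 to 15486365, assembly ARS-UI_Ramb_v3.0). Its level was 18.0 CPM in the lowest, 30.0 in the median and 54.5 in the highest control lamb, and 13.3, 20.6 and 36.5 CPM in biosolids lambs. Of 14 biosolids lambs, 13 lay below the control median and 5 below every control, but the ranges overlapped. The log2 fold change was −0.56 ± 0.12 (SE; 95% interval −0.80 to −0.32; p = 5.08e-05 with n = 14 and n = 15, adjusted p = 0.726 by edgeR). It was −0.52 in females and −0.60 in males when the sexes were fitted apart, and lay between −0.62 and −0.51 with any 1 lamb left out. DESeq2 gave it an adjusted p of 0.080, above the threshold. All other genes named in this section had an adjusted p of 0.999 by edgeR.

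Among genes with a symbol, TEAD4 had the smallest p. It encodes a DNA-binding partner of YAP and TAZ, the effectors of the Hippo pathway that restrains organ size, and lies on chromosome 3 (212610234 to 212676293). Control lambs ranged from 18.6 to 43.9 CPM with a median of 26.9, and biosolids lambs from 16.4 to 29.2 CPM with a median of 19.5. Again 13 of 14 biosolids lambs were below the control median and 5 below all controls. The log2 fold change was −0.43 ± 0.12 (SE; 95% interval −0.67 to −0.19), and −0.27 in females and −0.62 in males. Of 22 tested Hippo pathway genes, TEAD4 and STK4, a kinase of its core (−0.23 ± 0.10, 95% interval −0.44 to −0.01), were the 2 at an unadjusted p under 0.05. Over all tested genes that share was 3.14%. STK4 stood at −0.13 without control female 8263. The list had 9 members higher and 13 lower and a median of −0.04, against −0.00 for all tested genes.

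SPP1 encodes osteopontin, a secreted glycoprotein of bile duct cells and macrophages that marks liver injury in other species. Its level in controls was 0.532 CPM at the lowest, 9.59 at the median and 85.6 at the highest, and in biosolids lambs 0.264, 3.13 and 8.49 CPM. All 14 biosolids lambs were below the control median, and none exceeded 8.49 CPM, but 3 control females lay between 0.532 and 0.573 CPM. The log2 fold change was −2.24 ± 0.64 (SE; 95% interval −3.55 to −0.92), −1.51 in females and −3.14 in males. It stayed between −2.42 and −1.92 with any 1 lamb left out and was −2.37 without the 4 libraries that stood apart. SPP1 is on chromosome 6 (37363570 to 37376486).

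KCNC4, which encodes a voltage-gated potassium channel, differed through a few control lambs. Control males 8351 and 8382 had 54.1 and 40.1 CPM and control females 8269 and 8313 had 34.6 and 27.4 CPM, while the other 11 controls had at most 6.84 CPM. Biosolids lambs lay between 2.04 and 7.57 CPM, with a median of 3.95 against 5.26 in controls. The log2 fold change was −1.70 ± 0.48 (SE; 95% interval −2.68 to −0.71). High levels were thus seen in 4 of 15 controls and in 0 of 14 biosolids lambs, and the remaining lambs of both groups overlapped throughout.

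The other genes lower in biosolids lambs differed by smaller amounts. SLC43A3, a transporter of purine bases, had a median of 18.7 CPM in biosolids and 28.5 in control lambs, with all 14 biosolids lambs under the control median (−0.52 ± 0.15, 95% interval −0.82 to −0.22). ZKSCAN2, a zinc finger gene, had medians of 4.88 and 6.54 CPM, with all 14 biosolids lambs under the control median and 4 under all controls (−0.38 ± 0.11, 95% interval −0.61 to −0.15). TSPYL5 had 28.1 and 34.7 CPM and a nearly equal log2 fold change in females (−0.44) and males (−0.42). PPP1R18, which encodes an actin-binding subunit of a protein phosphatase, had medians of 27.1 and 32.2 CPM (−0.29 ± 0.08, 95% interval −0.45 to −0.12). MPP2, a membrane scaffold gene, had 17.8 and 23.1 CPM (−0.61 ± 0.19, 95% interval −0.99 to −0.22). Their ranges overlapped between the groups in each case.

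Most of the genes higher in biosolids lambs had medians under 10 CPM. LOC101110904, a protein-coding gene without an assigned name on chromosome 1 (272085738 to 272148529), had 6.52, 9.01 and 14.7 CPM in the lowest, median and highest biosolids lamb and 4.49, 6.49 and 10.9 CPM in controls. All 14 biosolids lambs lay above the control median and 5 above all controls. Its log2 fold change was 0.49 ± 0.13 (SE; 95% interval 0.23 to 0.76), 0.54 in females and 0.43 in males. The long non-coding RNA gene LOC105615690 followed the same pattern, with all 14 above the control median and medians of 6.89 and 4.50 CPM (0.53 ± 0.17, 95% interval 0.19 to 0.87). LOC114109243, a short non-coding RNA gene, had medians of 2.77 and 1.72 CPM, and 8 of 14 biosolids lambs exceeded every control (0.61 ± 0.17, 95% interval 0.27 to 0.96).

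SPATA1, a gene named for its expression in sperm development, had the smallest p of the higher genes with a symbol. Its level was 0.773, 1.84 and 5.45 CPM in the lowest, median and highest biosolids lamb and 0.201, 0.895 and 2.75 CPM in controls, and 13 of 14 biosolids lambs were above the control median. The control median lay under the 1 CPM of the filter, so the gene was tested mostly through its level in biosolids lambs. The log2 fold change was 1.09 ± 0.31 (SE; 95% interval 0.45 to 1.73), 0.56 in females and 1.77 in males. FRMD5, a membrane-cytoskeleton linker, had medians of 3.28 and 1.62 CPM, with 13 of 14 biosolids lambs above the control median (0.85 ± 0.28, 95% interval 0.27 to 1.43). MTO1, which modifies mitochondrial transfer RNA, differed by little but in 13 of 14 lambs, with medians of 21.4 and 18.6 CPM (0.19 ± 0.06, 95% interval 0.07 to 0.31). TRIM2, a ubiquitin ligase, had 3.34 and 2.25 CPM (0.49 ± 0.17), and PIN4, a prolyl isomerase, 2.90 and 2.27 CPM (0.52 ± 0.17). ARHGAP24, which inactivates small GTPases, had 12.3 and 10.1 CPM (0.33 ± 0.11). In each of these genes the ranges of the groups overlapped.

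**Figure D2:**
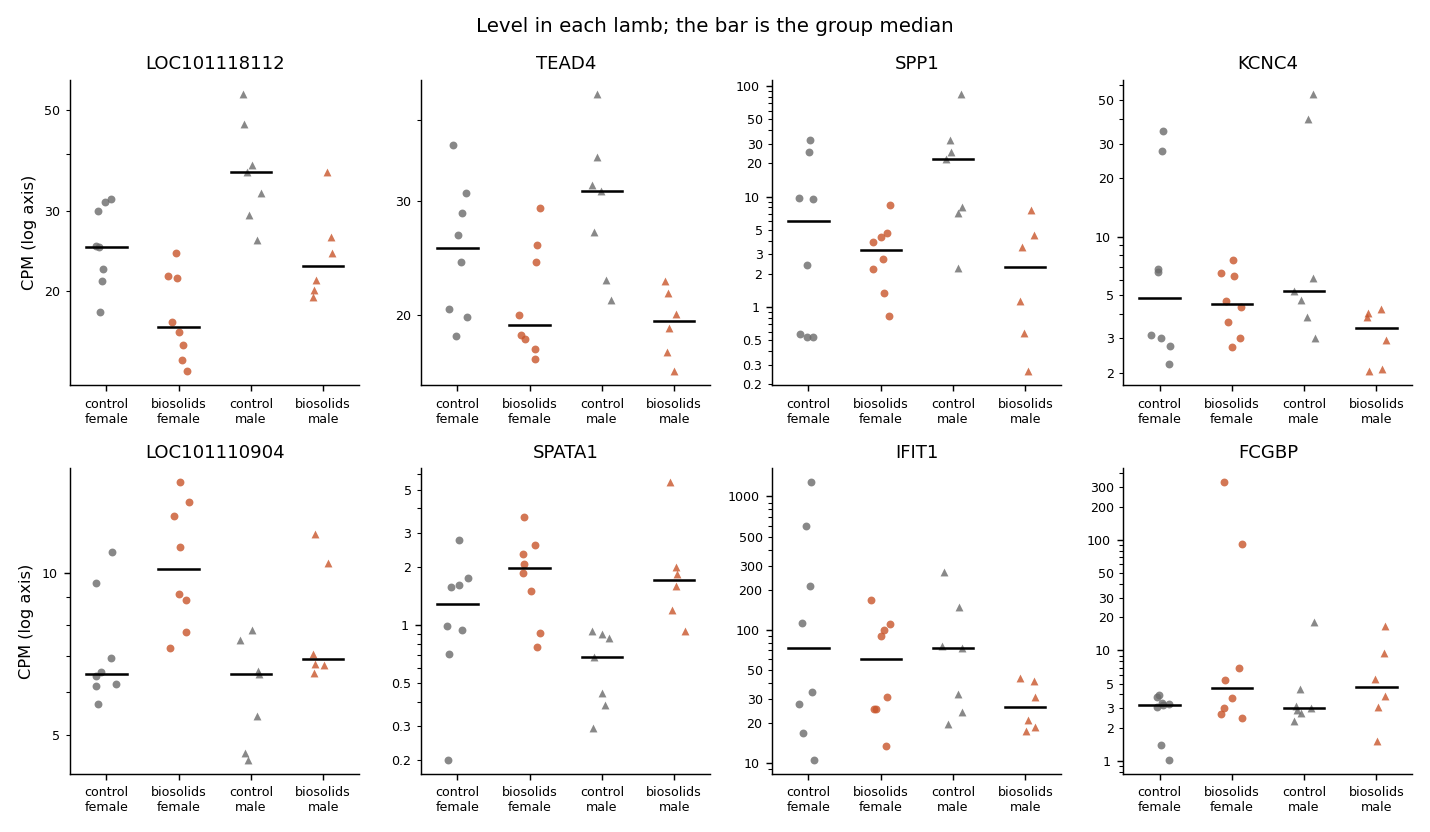
CPM of 8 genes in each of the 29 lambs (y axis, log scale) by group (x axis); circles are females, triangles males, grey control and orange biosolids, and bars are group medians. SPP1 and LOC101118112 sit lower and LOC101110904 and SPATA1 higher across most biosolids lambs, whereas KCNC4 and FCGBP differ through a few lambs. IFIT1 is highest in a few controls, and its log2 fold change stayed between −2.03 and −1.33 with any 1 lamb left out.

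The largest positive difference, that of FCGBP, rested on 2 biosolids females. FCGBP encodes a protein of mucus and lies on chromosome 14 (48813856 to 48854330). Biosolids females 8649 and 8668 had 332 and 91.8 CPM, whereas the other 12 biosolids lambs had at most 16.7 CPM and controls had between 1.02 and 18.2 CPM. The medians were 4.63 and 3.12 CPM. The log2 fold change of 2.63 ± 0.88 (SE; 95% interval 0.83 to 4.43) was 4.28 in females and 0.37 in males, 1.54 without 8649, and 0.31 without the 4 libraries that stood apart.

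Several other genes were also highest in 8649. CD24, a surface glycoprotein of epithelial progenitors and lymphocytes, reached 19.7 CPM in 8649 and 7.51 in 8668 against at most 3.87 CPM in controls, and its log2 fold change of 0.80 ± 0.27 was 0.44 without 8649. TMEM45B reached 21.4 CPM in 8649 and went from 0.82 ± 0.28 to 0.49 without it. ERN2, an endoplasmic reticulum stress sensor of mucous cells, reached 22.0 CPM there and went from 1.33 ± 0.55 to 0.64. FBLN1, an extracellular matrix protein, reached 14.3 CPM in 8649 and 12 in 8668 against at most 5.44 CPM in controls (0.86 ± 0.31, and 0.37 without the 4 libraries). DNAH11, a motor protein of cilia, had 4.23 and 3.58 CPM in these 2 lambs and a log2 fold change of 0.73 ± 0.24, or 0.42 without the 4 libraries.

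The marker lists of epithelium were high in the same lamb. The summed level of the 12 mucous epithelium markers in the table was 1892 CPM in 8649, against 205 to 519 CPM in controls and a median of 252 in biosolids lambs. MUC5AC and PIGR were among the 6 tested members, of which 3 were higher and 3 lower, with a median of 0.03, or −0.10 without 8649 and 0.35 without 8263. The 11 cholangiocyte (bile duct cell) markers in the table summed to 596 CPM in 8649 and to between 213 and 423 CPM in controls. Of 9 tested, 7 were higher with a median of 0.31, which was 0.09 without 8649 and −0.02 without the 4 libraries. EPCAM and CFTR were at an unadjusted p under 0.05 in the higher direction and SPP1 and MUC1 in the lower. Over all tested genes the shares in these directions were 1.22% and 1.93%. MUC1, a membrane mucin, lay between 15.2 and 22.8 CPM in control males and between 7.46 and 15.1 CPM in biosolids males without overlap, but had a log2 fold change of −0.02 in females (pooled −0.39 ± 0.16). In bulk tissue, more cells of a type and more RNA per cell cannot be told apart, and the part of epithelium in these differences was not tested.

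Interferon-stimulated genes were the list with the lowest median. These genes are switched on by type I interferon and block the replication of viruses. Of 37 listed genes, 27 passed the filter, and all of these 27 were lower in biosolids lambs, against 50.7% of all tested genes, with a median log2 fold change of −1.21. At an unadjusted p under 0.05 there were 22, against 1.93% of all tested genes in the lower direction, and 0 after adjustment by edgeR. RSAD2, which makes an antiviral nucleotide, had −2.22 ± 0.71, IFIT1, which binds viral RNA, −1.87 ± 0.58, and IFI6, the member with the highest level per length, −1.23 ± 0.54. Of the transcription factor genes of the pathway, STAT2 stood at −0.15 and IRF9 at −0.48, and both intervals reached 0.

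The size of this difference depended on control female 8263. IFIT1 (chromosome 22, 10892356 to 10902480) had 1278 CPM in 8263 and 605 in control female 8378. The other controls began at 10.6 CPM with a control median of 72.9, and biosolids lambs had 13.4, 31.3 and 166 CPM at the lowest, median and highest. RSAD2 had 642 CPM in 8263, at most 46.1 in the other controls and at most 23.3 in biosolids lambs. The highest values were thus in a few controls, and 4 of 14 biosolids lambs lay above the control median of IFIT1.

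Without 8263 the median of the list was −0.53 and 26 of 27 members were lower. At an unadjusted p under 0.05 there were then 5, against 2.92% of all tested genes. Without all 4 libraries that stood apart the median was −0.40, with 26 lower and 0 at that level. IFIT1 then stood at −1.11 and RSAD2 at −0.46. Without 8263 alone IFIT1 was −1.33, RSAD2 −0.61 and IFI6 −0.51. The median over both sexes was made of −1.43 in females and −0.71 in males, and 8263 is a female. All 27 members were also lower in the fit of males only, which does not hold 8263. Genes of this list are switched on together, so the 27 members are not separate observations. As a mean over the 27 genes on the log2 CPM scale, 8263 stood at 8.29, followed by control female 8378 at 6.63 and control male 8428 at 6.16. Control male 8408, also among the libraries that stood apart, was at 5.52. Control males other than 8428 and 8408 lay between 3.96 and 4.87. Biosolids females lay between 3.74 and 5.68, and biosolids males between 3.68 and 4.51. The group median was 4.71 in biosolids and 4.65 in control females, so the median exposed female was not lower. In males it was 4.10 in biosolids and 4.61 in control lambs. The lower end was alike in all groups, with 3.62 in control females and 3.96 in control males.

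Other genes low in p shared the high value in 8263. CLEC2D, a ligand of a natural killer cell receptor, had 170 CPM there and at most 41.4 CPM in other controls, and its log2 fold change of −0.84 ± 0.25 was −0.43 without it. The non-coding RNA genes LOC106991530 and LOC132659464 had 51.3 and 13.6 CPM in 8263, and went from −1.88 ± 0.55 to −0.95 and from −1.03 ± 0.29 to −0.76. T and NK cell markers summed to 176 CPM in 8263, with a control median of 68.7 CPM and a range of 35.7 to 88.3 CPM in biosolids lambs. Of 13 tested, 12 were lower with a median of −0.28, which was −0.15 without 8263. The examples with the smallest p were PRF1, a pore-forming protein of cytotoxic cells (−0.44 ± 0.22), and CD3E, a part of the T cell receptor complex (−0.35 ± 0.18). Macrophage markers summed to 2792 CPM in 8263 and to at most 1760 CPM in biosolids lambs, and the median of 13 tested members was −0.07, or −0.00 without 8263. The part of these cells in the lower interferon-stimulated genes was not tested.

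**Figure D3:**
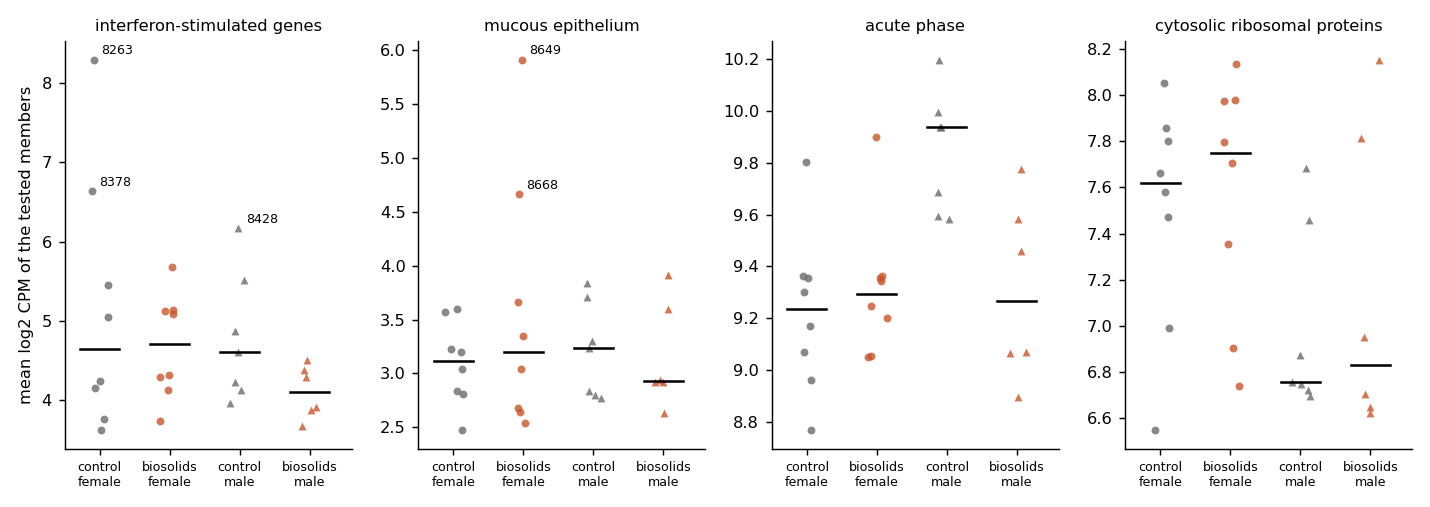
Mean log2 CPM of the tested members of 4 gene lists in each lamb (y axis) by group (x axis), with colours and symbols as for single genes and bars at group medians. Control female 8263 at 8.29 stands above all other lambs for interferon-stimulated genes, biosolids females 8649 and 8668 stand above the rest for mucous epithelium, and control males have the highest median for acute phase genes.

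Genes that answer chemicals showed no called difference. CYP1A1, the classical target of the aryl hydrocarbon receptor, had 80.5, 317 and 959 CPM in the lowest, median and highest control lamb and 84.6, 240 and 736 CPM in biosolids lambs, and the ranges overlapped almost wholly. Its log2 fold change was −0.24 ± 0.34 (SE; 95% interval −0.94 to 0.47). The separate fits went in opposite directions, 0.49 in females and −1.16 in males, and the difference between them had an unadjusted p of 0.0106 and an adjusted p of 0.999 by edgeR. The receptor itself, AHR, had −0.21 ± 0.14, and 6 of 8 tested genes of its pathway were lower with a median of −0.06. NQO1, a quinone reductase, had 0.27 ± 0.21, or 0.13 without biosolids female 8649, its highest lamb at 14.3 CPM.

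The receptors NR1I2 and NR1I3 had −0.08 ± 0.12 and −0.13 ± 0.14, with intervals of −0.31 to 0.16 and −0.40 to 0.15, so a difference of more than 0.5 log2 units lay outside both. Genes of drug metabolism and transport, among them targets of these receptors, had 11 of 25 tested members higher and 14 lower and a median of −0.01. CYP2E1, the member with the highest level per length, had −0.10 ± 0.15, CYP2C19 −0.45 ± 0.35, and the efflux pump ABCB1 −0.24 ± 0.13. Of 23 NRF2 and glutathione genes 9 were higher and 14 lower with a median of −0.03. HMOX1, which degrades haem, had −0.13 ± 0.12, FTH1, the ferritin heavy chain, −0.12 ± 0.12, and the export pump ABCC1 −0.18 ± 0.09. ME1, an enzyme that makes NADPH, had 0.59 ± 0.30, or 0.33 without biosolids female 8714, its highest lamb at 5.58 CPM. Metal handling genes had 8 of 22 higher and a median of −0.04. No member of these 4 lists was at an unadjusted p under 0.05.

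**Figure D4:**
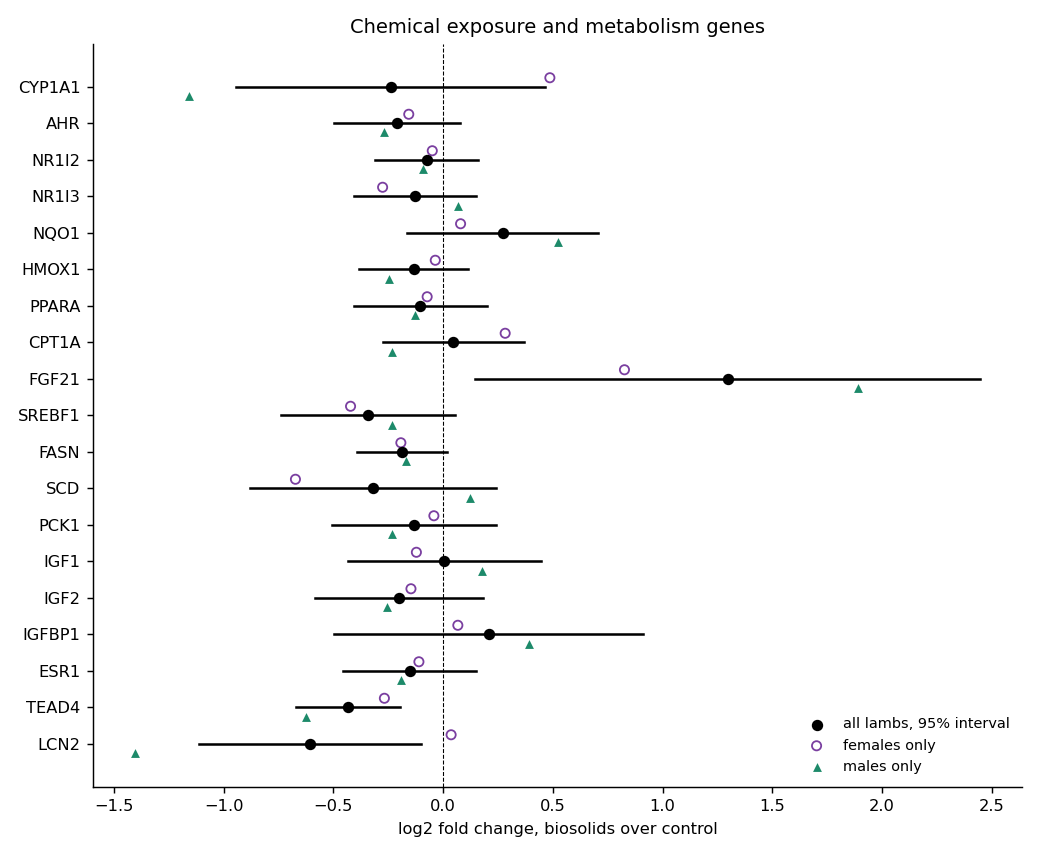
Log2 fold change of biosolids over control lambs (x axis) for 19 genes of chemical exposure and metabolism (y axis): black points and lines are the estimate over all lambs and its 95% interval, open circles the fit in females only and triangles the fit in males only. The intervals of FGF21, LCN2 and TEAD4 do not reach 0 before adjustment for the number of genes, and CYP1A1 and LCN2 lie apart in the separate fits.

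No lipid gene was called. FGF21, a liver hormone of fasting and of PPARA activity, had 2.01, 7.36 and 74.9 CPM in the lowest, median and highest biosolids lamb and 0.189, 4.92 and 23.2 CPM in controls. Of 14 biosolids lambs, 8 were above the control median and 3 above all controls. Its log2 fold change was 1.30 ± 0.56 (SE; 95% interval 0.14 to 2.45), and 0.69 without biosolids male 8762, the highest lamb. It was the 1 gene of 23 of fatty acid oxidation and ketogenesis at an unadjusted p under 0.05, against 3.14% of all tested genes. Of these 23, 16 were higher with a median of 0.04. PPARA, the receptor that drives this programme, had −0.10 ± 0.15, CPT1A, which admits fatty acids to mitochondria, 0.05 ± 0.16, PDK4, a brake on glucose oxidation, 0.18 ± 0.16, and ACAA1 of the peroxisome −0.03 ± 0.13.

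Of 21 genes of fatty acid and triglyceride synthesis 15 were lower with a median of −0.06 and 0 at an unadjusted p under 0.05. SREBF1, the transcription factor of the programme, had −0.34 ± 0.19, FASN, fatty acid synthase, −0.19 ± 0.10, SCD, stearoyl-CoA desaturase, −0.32 ± 0.27, and the lipase PNPLA2 −0.10 ± 0.12. Cholesterol genes had 16 of 21 lower and a median of −0.07, made of −0.25 in females and 0.16 in males, and 0.057 without control female 8378. Its members PMVK and NSDHL, enzymes of the pathway, had −0.21 ± 0.12 and −0.26 ± 0.18, the latter −0.053 without 8378. Apolipoprotein genes (10 of 14 lower) and bile acid genes (8 of 12 lower) both had a median of −0.04.

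For glucose and amino acids, 15 of 20 tested genes were lower with a median of −0.02. PCK1, the gatekeeper of gluconeogenesis, had −0.13 ± 0.18, FBP1 0.13 ± 0.10 and HPD, an enzyme of tyrosine breakdown, −0.12 ± 0.12. SDS, which turns serine into pyruvate, had −1.0 ± 0.54, or −0.59 without 8263, which had 588 CPM. The 11 urea cycle genes had 5 higher and a median of −0.02.

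The growth and hormone lists had medians close to 0. The 95% interval lay within 0.5 log2 units of 0 for 13 of 17 growth genes and 11 of 16 steroid and thyroid genes. IGF1, the main growth factor made by the liver, had 0.01 ± 0.21, IGF2 −0.20 ± 0.19, IGFBP1 0.21 ± 0.34, IGFBP2 −0.05 ± 0.26, IGFBP4 −0.15 ± 0.09 and STAT5A, which carries the growth hormone signal, −0.17 ± 0.09. The list of 17 had 7 higher and a median of −0.02. The oestrogen receptor gene ESR1 had −0.15 ± 0.15 and a range of 47.4 to 186 CPM in biosolids and 75.3 to 218 CPM in control lambs. In the list of 16 steroid and thyroid genes, 8 were higher with a median of 0.02. Thyroid hormone receptor beta (THRB) was the 1 member at an unadjusted p under 0.05 (0.28 ± 0.12, 95% interval 0.04 to 0.53). The share over all tested genes was 3.14%. The mineralocorticoid receptor gene NR3C2 had 0.24 ± 0.14 and TTR, a thyroid hormone carrier, −0.04 ± 0.14.

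Acute phase genes had mostly lower levels in biosolids lambs, with medians of the separate fits that differed. Of 22 tested, 20 were lower, against 50.7% of all genes, with a median of −0.14, made of 0.10 in females and −0.46 in males, and −0.090 without biosolids male 8735. LCN2, an iron-scavenging protein of inflammation, had 6.44, 13.6 and 50.5 CPM in the lowest, median and highest control lamb and 5.35, 9.98 and 16.3 CPM in biosolids lambs. In males the ranges were 13.6 to 50.5 and 5.40 to 16.3 CPM, and in females 6.44 to 16.1 and 5.35 to 16.1 CPM. The pooled log2 fold change was −0.61 ± 0.25 (SE; 95% interval −1.11 to −0.10), with 0.04 in females and −1.40 in males, and the difference between the sexes had an unadjusted p of 0.00128 and an adjusted p of 0.999 by edgeR. ITIH4, a plasma protease inhibitor, had −0.47 ± 0.22 (95% interval −0.91 to −0.03), or −0.29 without control female 8245. ALB, the albumin gene, had 0.07 ± 0.13.

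Complement and coagulation genes had 29 of 33 lower, against 50.7% of all genes, and a median of −0.09 (0.01 in females and −0.23 in males). Of these genes, 0 were at an unadjusted p under 0.05. Their levels varied with the first principal component of the libraries (Pearson's r = 0.86), so the members are not separate observations. MASP2, a protease of the lectin pathway, had −0.16 ± 0.09, the complement inhibitor SERPING1 −0.23 ± 0.16, and FGB, fibrinogen beta, −0.09 ± 0.13. Hepatocyte markers had 9 of 14 lower and a median of −0.05. AHSG had −0.18 ± 0.13 and F2, prothrombin, −0.16 ± 0.14.

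Immediate early genes, which respond within minutes to stress and growth signals and to the handling of tissue, had 20 of 24 lower and a median of −0.16. Without 8263 the median was −0.093 with 16 lower, and without the 4 libraries that stood apart −0.082 with 18 lower and 0 at an unadjusted p under 0.05. With all 29 lambs 3 of 24 were at that level, against 3.14% of all tested genes. DUSP2, a phosphatase of MAP kinases, had −0.32 ± 0.12 and ZFP36, which destabilises cytokine RNA, −0.35 ± 0.13, or −0.25 without 8263. JUND had −0.07 ± 0.12. The median was 0.02 in females and −0.36 in males. Clock genes (19 tested, median −0.08) included DBP at −0.38 ± 0.16 and RORA at 0.24 ± 0.10, both at an unadjusted p under 0.05, as were 3.14% of all tested genes. BHLHE40 stood at 0.04 ± 0.22. The labels give no time of sampling.

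Ribosomal protein genes leaned the other way. Of 73 tested, 68 were higher, against 49.3% of all genes, with a median of 0.15 and 0 at an unadjusted p under 0.05. RPL30 had 0.25 ± 0.13, RPL7 0.21 ± 0.11 and RPS2 0.09 ± 0.18. The median was 0.04 without biosolids male 8735 and −0.03 with 2 surrogate variables in the model. The lambs' mean log2 levels of the list ran from 6.55 to 8.05 in controls and from 6.62 to 8.15 in biosolids lambs. These levels varied with the first principal component of the libraries (Pearson's r = −0.92), so the members are not separate observations. Nuclear genes of oxidative phosphorylation had 48 of 55 higher, against 49.3% of all genes, with a median of 0.08, or 0.038 without 8735. Their levels also varied with the first principal component (Pearson's r = −0.86), so these members are not separate observations either. NDUFA12 of complex I had 0.24 ± 0.13, and the ATP synthase genes ATP5MC3 and ATP5F1B 0.18 ± 0.10 and 0.05 ± 0.09. Proteasome genes had 20 of 30 higher and a median of 0.01.

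Cell cycle genes had 17 of 24 lower and a median of −0.16, with 0 at an unadjusted p under 0.05. The median was −0.015 without control male 8428 and −0.28 without biosolids female 8775, the lambs with the highest mean level of the list in their groups. MCM6, a replication helicase, had −0.25 ± 0.13, TYMS, which makes thymidylate, −0.31 ± 0.18 and CCND1, cyclin D1, −0.23 ± 0.15. Genes of DNA methylation had 17 of 20 lower and a median of −0.03. Chaperone genes had 16 of 27 higher and a median of 0.01. Of the other cell types, stellate cell and fibroblast markers had 16 of 21 higher (median 0.07; COL6A3 0.35 ± 0.25, COLEC11 −0.08 ± 0.08) and endothelial markers 11 of 17 lower (median −0.02). The stellate cell and fibroblast list had 12 of 21 higher and a median of 0.021 without the 4 libraries that stood apart, and COL6A3 was 0.20 without biosolids female 8649. B and plasma cell markers had 4 of 6 lower (median −0.04), and smooth muscle markers 5 of 5 higher (median 0.07). The lists of neutrophil (2 tested), mesothelium (3), pancreas and gut (2) and nerve and muscle (1) markers had 0 members at an unadjusted p under 0.05. WWC1 of the Hippo pathway had −0.18 ± 0.14, C1QB of macrophages −0.18 ± 0.16, FCER1G −0.26 ± 0.20 and CSF1R −0.16 ± 0.12. Without 8263 C1QB stood at −0.068 and FCER1G at −0.022. CCL5, a chemokine of T cells, had −0.42 ± 0.26 (−0.28 without 8263), CLDN4 of bile ducts 0.05 ± 0.15 and TFF2 of mucous cells −0.10 ± 0.40.

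**Figure D5:**
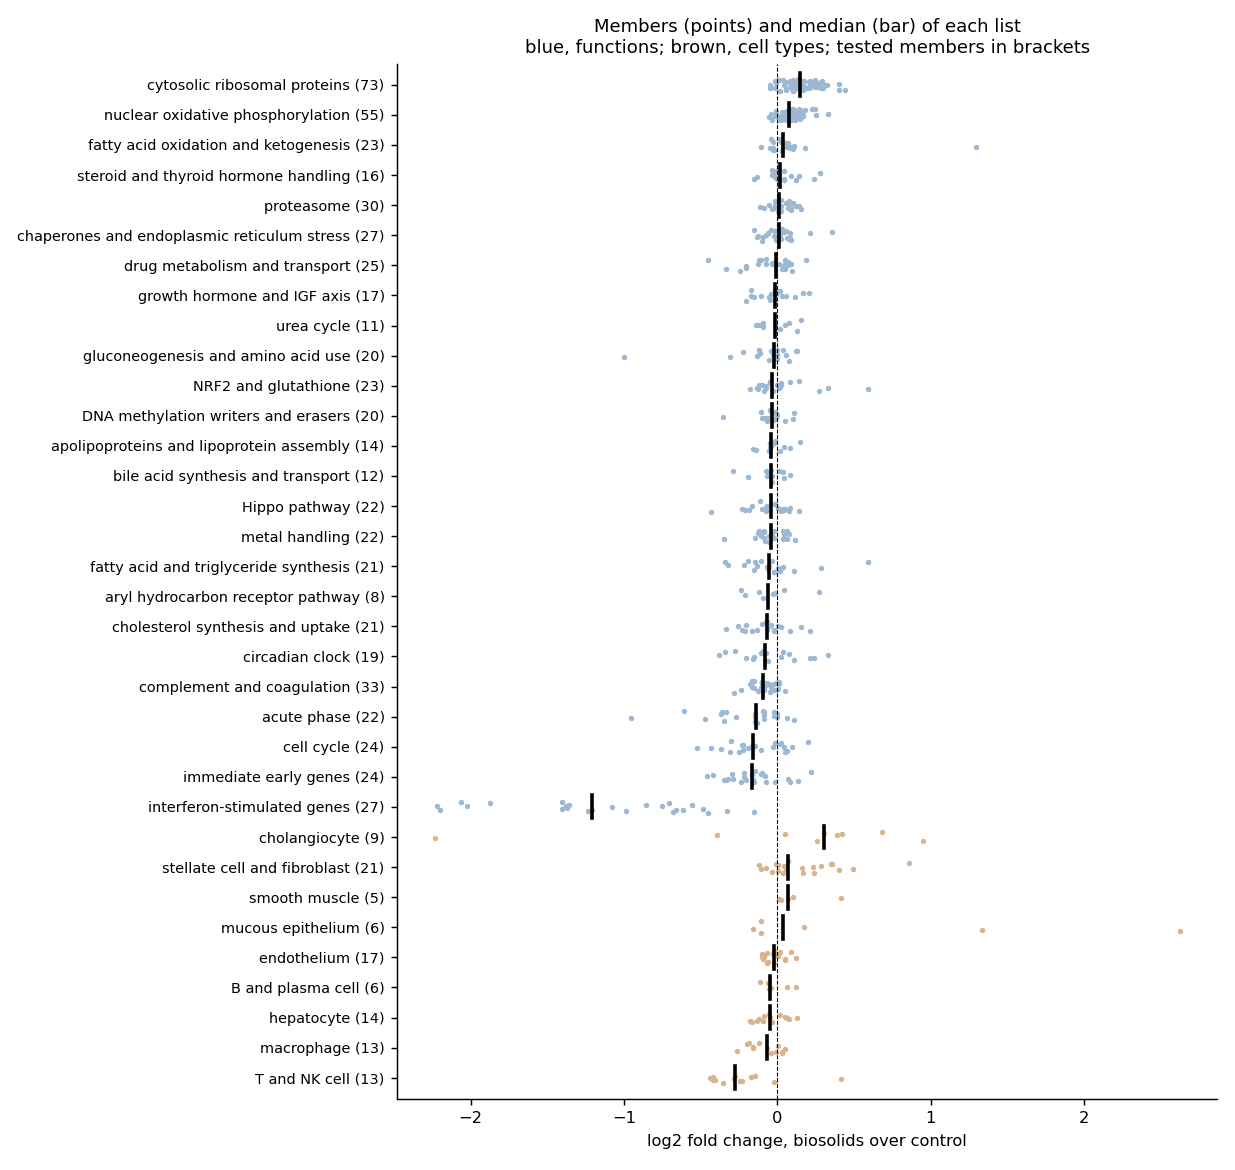
Log2 fold change of biosolids over control lambs (x axis) of each tested member (points) of the 34 gene lists with at least 5 tested members (y axis; the number tested in brackets), with the list median as a bar. Interferon-stimulated genes lie lowest with a median of −1.21, and all other medians lie between −0.28 and 0.31.

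The pooled estimate did not stand for a shared direction across all genes. Separate fits of females and of males share no library. Their log2 fold changes had the same sign in 7106 of 14284 genes (49.7%), and across genes, which are not independent, Pearson's r was 0.061 and Spearman's rank correlation 0.0059. Females gave 365 genes at an unadjusted p under 0.05 (2.56%), of which 215 (58.9%) had the same sign in males. Males gave 542 (3.79%), of which 270 (49.8%) had the same sign in females, like the 49.7% of all genes. The sets shared 31 genes, 8.49% of the female and 5.72% of the male list, and 22 of the 31 had the same sign. These 22 included LOC101118112, LOC101110904, TSPYL5, CD24, DNAH11 and LOC105615690, and the interferon-responsive genes IFIT1, ISG15, IRF7, USP18, ZBP1, RIGI, HERC6, BATF2 and IFITM3. Interferon-responsive genes are switched on together, so these genes are not separate observations. The fit of females also held control female 8263, the highest lamb for interferon-stimulated genes (mean log2 CPM 8.29). The overlap between the sexes without 8263 was not tested.

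The difference of the exposure effect between the sexes was also tested over all genes. The edgeR test called 0 genes and gave 396 (2.77%) at an unadjusted p under 0.05, with a smallest adjusted p of 0.742. DESeq2 called 2, LOC101105149 with an adjusted p of 0.037 and LOC101112291 with 0.017. LOC101112291 is the X-linked RNA that was at 322 CPM in control male 8408 and at most at 2.15 CPM in the other males. LOC101105149, a protein-coding gene on chromosome 3, had 1.36 to 6.88 CPM in biosolids males and 0.586 to 1.53 CPM in control males, and 0.764 to 1.74 and 0.998 to 3.37 CPM in biosolids and control females. FBLIM1, a protein of cell junctions, had 0.76 ± 0.23 in females and −0.54 ± 0.19 in males (adjusted p = 0.999, edgeR).

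The libraries themselves differed little by exposure. Of 10 measures of each library (total counts, ribosomal and mitochondrial shares, share of the 10 most abundant genes, number of genes with a count, and 5 principal components after centring each sex), none passed a permutation test with exposure exchanged within sex and Benjamini-Hochberg adjustment. The number of genes with a count had the smallest p: 21828 ± 474 (SD, n = 14) in biosolids and 21437 ± 430 (SD, n = 15) in control lambs (permutation p = 0.0303, adjusted p = 0.303). The first principal component held 22.9% of the variance within sexes. Scores ran from −48.8 to 49.8 in biosolids and from −44.1 to 49.5 in control lambs (permutation p = 0.754, adjusted p = 0.890), so the groups covered the same range. Pearson's r of list levels with these scores was −0.92 for ribosomal proteins, −0.86 for oxidative phosphorylation and 0.86 for complement and coagulation.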

How the data were processed

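Liver RNA was sequenced from 30 lambs. Per the labels' protocols, RNA came from frozen tissue by a column kit and libraries from a TruSeq RNA kit; whether RNA was depleted or selected, the aligner settings, the strand setting and the genome build are not given in the sources used here. The submitters' processing notes name STAR, featureCounts 1.5.0-p3, Trimmomatic, FastQC and MultiQC with no roles. The authors deposited whole-number read counts per gene, not normalized, in 1 table with a column for each lamb and 0 columns without one. Of 31304 gene rows, 7 genes broken over 25 lines were joined. By symbol or locus tag, 28875 rows matched RefSeq (ARS-UI_Ramb_v3.0), with identical start and end in all 28868 that could be compared. Genes that overlap, are antisense or have near-identical copies could share reads. The 25 ribosomal RNA rows stayed in library sizes.

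Counts were scaled by TMM and fitted in edgeR 4.0.16 (R 4.3.3, robust quasi-likelihood) with sex and exposure as terms, and a 2nd model added their interaction. Calls required an adjusted p under 0.05 (Benjamini-Hochberg, over the 14284 genes). An SE is the fold change over the root of F, with 95% intervals from the t distribution. CPM rests on TMM-scaled library sizes, and list levels per lamb are means of log2 CPM with a prior count of 2. Library measures were compared by 100000 two-sided permutations. The precision of a value is set by its 95% interval, in which counting depth and spread between lambs are not separated. The test of exposure was checked on counts simulated independently for each gene. These held no sex effect, no lambs that stand apart and no variation shared between genes, so the check does not cover those features.

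Named genes were the 10 with a symbol and the 3 LOC genes with the smallest p in each direction, a set of 19 genes of chemical exposure and metabolism, and of each list described the 2 members with the smallest p and the member with the highest level per length. Other genes were named after their values were seen: LOC101112291, LOC101105149 and FBLIM1 for the difference between sexes, those listed as shared between the sexes, and GSDME, DTYMK, EPCAM, CFTR, MUC5AC, PIGR, STAT2 and IRF9. Some genes that these rules name are not reported here. The comparison, the 39 lists and the rules were chosen with earlier results of these data known. Alternatives were RLE scaling, DESeq2 1.42.0, limma 3.58.1 voom with sample weights, 2 surrogate variables from sva 3.50.0, no filter, edgeR's filterByExpr, no sex term, a 4-group model, a fold-change limit of 0.5 log2 units, an adjusted p of 0.1, all 30 libraries, each sex alone, each lamb left out, and, chosen after seeing the data, 4 libraries left out together.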

Additional observations from a re-analysis of the deposited data

Results flagged for a closer look

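Single lambs were set against the rest of their group for the genes with the smallest p, the exposure and metabolism set and the library measures, with Dixon's limit at the 95% level. Of 196 groups, 12 (6.12%) held a lamb beyond it, and chance alone flags about 1 in 20 groups. Biosolids male 8770 was far above its group for ARHGAP24 (20.0 CPM, group median 13.1) and far below it for CD24 (1.88 CPM, median 3.10) and DNAH11 (0.604 CPM, median 1.94). Control female 8263 was high for CLEC2D (170 CPM, median 25.6) and low for IGF2 (1594 CPM, median 4492). Control males 8364 and 8351 were high for FCGBP (18.2 CPM, median 2.99) and NQO1 (5.27 CPM, median 3.06), and biosolids female 8649 for TMEM45B (21.4 CPM, median 4.26). Biosolids male 8762 was low for IGFBP1 (154 CPM, median 954), and control female 8269 for TRIM2 (0.939 CPM, median 2.21). Among the library measures, control female 8245 had high total counts (39.1 M, median 32.3 M), and biosolids male 8690 a low share of its 10 most abundant genes (16.9%, median 18.5%). The excluded library of biosolids male 8778 had 87.5% of its counts on ribosomal RNA rows, with a highest share of 7.69% among the 29 others.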

How the results depend on the processing

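No gene was called for exposure under any of the alternatives, with each lamb left out included; the smallest adjusted p of an edgeR alternative with other samples or filters was 0.196, with the 4 libraries left out. No paired analysis was possible because the groups share no replicate numbers. The number of genes at an unadjusted p under 0.05 (449) was 57 with the fold-change limit, 686 with limma voom, 1464 with no filter (26916 genes) and 227 with the 4 libraries left out, and lay between 347 (without 8649) and 742 (without control male 8364). For the difference between sexes (0 called, 396 at an unadjusted p under 0.05), DESeq2 called 2, limma voom gave 669 and the 4 libraries left out 741, and leaving out a lamb gave 312 to 637. With all 30 libraries the mean difference in ribosomal RNA share was 5.63 and in the share of the 10 most abundant genes 4.48 percentage points; principal components were not computed with all 30.

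Of 103 gene fold changes, 21 changed sign in 32 of 1442 refits other than those leaving out a lamb. The median of all genes stayed within 0.01 of 0 when a lamb was left out. In females only these were CYP1A1 (0.49), IGF1 (−0.12), LCN2 (0.037), PMVK (0.089), FGB (0.16), WWC1 (0.037) and TFF2 (0.16). In males only they were NR1I3 (0.069), CPT1A (−0.24), SCD (0.12), ME1 (−0.063), PDK4 (−0.13), NSDHL (0.072), STAT5A (0.026), IGFBP2 (0.16), TTR (0.024), BHLHE40 (−0.35), CLDN4 (−0.16), ERN2 (−0.098) and COL6A3 (−0.069). With 2 surrogate variables they were IGFBP2 (0.013), RPS2 (−0.067) and TFF2 (0.048). With limma voom they were IGF1 (−0.067), TTR (0.0085) and BHLHE40 (−0.083). With all 30 libraries they were IGF1 (−0.030) and BHLHE40 (−0.012), and with the 4 libraries left out TTR (0.024). BHLHE40 was −0.010 with no sex term and −0.00011 in the 4-group model, and CLDN4 −0.0031 with no sex term. Leaving out a lamb gave ACAA1 −0.075 to 0.019, BHLHE40 −0.059 to 0.13, CLDN4 −0.013 to 0.12, CPT1A −0.018 to 0.12, IGF1 −0.12 to 0.077, IGFBP2 −0.27 to 0.030, TFF2 −0.26 to 0.0036 and TTR −0.10 to 0.0090. List medians moved by over 1 SD of their members in 21 refits of 11 lists, among them the interferon-stimulated genes, at −0.10 with 2 surrogate variables and −0.26 with limma voom. The causes were not tested. Intervals were widest for the genes under 5 CPM, and the part of depth in this was not tested.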

Other observations

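GSDME, the gene of a pore-forming protein of cell death, was close to silent in all but 2 lambs. Control female 8360 had 135 CPM and biosolids male 8735 had 140 CPM, while the other 27 lambs lay between 0.551 and 2.56 CPM. Because these 2 lambs were of opposite sex and exposure, the separate fits gave −3.67 in females and 4.41 in males and the pooled fit −0.33 ± 1.87. DTYMK, an enzyme of thymidine nucleotide supply, ranged from 5.89 to 19.8 CPM in biosolids and from 6.04 to 23.8 CPM in control lambs, with a log2 fold change of 0.07 ± 0.20.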
